A study of Mus musculus with 10 samples.

Results

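The subject was a set of 10 genes of endothelial identity and blood vessel growth, Pecam1, Cdh5, Kdr, Flt1, Tek, Cldn5, Vwf, Emcn, Esam and Vegfa, in the lactating mammary gland of the inbred mouse strain BALB/c. The genes were taken by name, with no threshold on their values, and all 10 were found among the 35275 Ensembl genes of the deposited table. RNA was sequenced from 5 glands injected with lipopolysaccharide (LPS, the endotoxin of Gram-negative bacteria, here from E. coli 055:B5) and from 5 that received sterile phosphate-buffered saline (PBS). The labels state that on day 3 of lactation LPS, 50 µL at 0.4 mg/mL, was given through the teat into 1 gland of the 4th pair and PBS into the gland of the opposite side, with collection 12 h later. The control side therefore lay in an animal that had also received LPS, and glands without an injection were not analysed here. The labels give 9 animals and do not state which of them each of the 10 libraries came from, and all p-values here refer to the variation among these glands.

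Endothelial cells line all blood vessels. Vascular endothelial growth factor A (Vegfa) is secreted mostly by other cells, among them epithelium, and binds the endothelial receptors VEGFR2 (Kdr) and VEGFR1 (Flt1). The first carries most of the growth and permeability signal and the second largely acts as a trap for the ligand. The receptor TIE2 (Tek) binds the angiopoietins and holds vessels quiescent and tight, while VE-cadherin (Cdh5), claudin-5 (Cldn5), ESAM (Esam) and PECAM-1 (Pecam1) sit at the junctions between endothelial cells. In the lactating gland a dense capillary bed surrounds the milk-producing alveoli, and in inflammation this endothelium becomes leaky and lets leukocytes pass.

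Of the 10 genes, 1 changed 12 h after LPS. Vegfa fell to 12.4 ± 1.53 FPKM in LPS glands, against 19.9 ± 3.35 FPKM in PBS glands (SD, n = 5 each), a ratio of means of 0.622. FPKM is reads per length of the gene and per depth of the library. The 9 endothelial genes had overlapping groups and none was called, with log2 changes between -0.25 (Kdr) and 0.13 (Emcn). By limma's moderated test over 11414 genes, at a Benjamini-Hochberg adjusted p below 0.05, 1 of the 10 genes was lower and 0 were higher. Over all tested genes 0.605% were called lower and 2.63% higher, or 3.23% in either direction. Before adjustment, at p below 0.05, the 10 genes again gave 1 lower and 0 higher (4.07% and 12.4% of all genes), and edgeR and DESeq2 on recovered reads each called Vegfa lower and none higher. Of all genes edgeR called 1.16% lower and 2.67% higher (3.83% in all), and DESeq2 called 2.62% lower and 4.78% higher (7.4% in all).

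All 10 genes had reads in every library, between 86 and 1567 per gene and library, at a depth of 15734303 to 18869545 counted reads. To be tested a gene needed 1 FPKM or more in 5 or more of the 10 libraries, which all 10 genes met, Vwf with exactly 5. Endothelial markers were thus detected in each gland. In whole glands fewer cells of a type and less RNA per cell cannot be told apart. Transcripts of milk proteins took 32.98 to 44.9% of summed FPKM in LPS glands and 39.3 to 50.4% in PBS glands, and rescaling to the sum outside them moved the median log2 change of all genes to -0.13, against 0.05 as deposited. Libraries also differed in B and T cell transcripts: Cd79a, a B cell receptor subunit, reached 3.65 FPKM in LPS replicate 3 and 1.40 FPKM in LPS replicate 2, and 12.7 FPKM in PBS replicate 2 and 6.41 FPKM in PBS replicate 4. In the other 6 libraries it was at 0.255 FPKM or less.

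The 250 bases before the annotated start are shown for the called ligand gene and the genes of its receptors. They run 5′ to 3′ on the strand of the gene, are taken from RefSeq on build GRCm38.p6, and have in capitals GGAA or TTCC, the core bound by ETS factors such as ERG, and GGGCGG or CCGCCC, the GC box.
Vegfa (chr17:46032378-46032627, minus strand): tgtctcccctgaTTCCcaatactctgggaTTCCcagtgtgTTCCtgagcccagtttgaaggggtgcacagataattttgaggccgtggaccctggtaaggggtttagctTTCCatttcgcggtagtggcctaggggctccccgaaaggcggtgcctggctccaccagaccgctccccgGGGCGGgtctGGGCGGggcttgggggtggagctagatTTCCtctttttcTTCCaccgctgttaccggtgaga
Kdr (chr5:75978456-75978705, minus strand): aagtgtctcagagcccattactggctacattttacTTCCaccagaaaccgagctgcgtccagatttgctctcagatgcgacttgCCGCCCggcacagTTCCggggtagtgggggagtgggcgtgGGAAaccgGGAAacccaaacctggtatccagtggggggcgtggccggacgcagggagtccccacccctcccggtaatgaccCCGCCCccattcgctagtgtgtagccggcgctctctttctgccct
Flt1 (chr5:147726012-147726261, minus strand): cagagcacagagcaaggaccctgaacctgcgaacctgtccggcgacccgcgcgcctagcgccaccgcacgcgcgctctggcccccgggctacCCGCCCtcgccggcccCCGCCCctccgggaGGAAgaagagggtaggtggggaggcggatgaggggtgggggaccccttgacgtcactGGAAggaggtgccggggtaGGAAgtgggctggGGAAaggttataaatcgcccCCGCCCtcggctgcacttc
Searched on both strands, the ETS core occurred 6 times before Vegfa, 4 times before Kdr and 4 times before Flt1. It was present in 93.4% of the 32851 RefSeq promoter windows of this length, with a median of 3, so its presence does not set these genes apart. The GC box occurred 2, 2 and 3 times in that order and in 32.7% of all windows. The letters TATAAA were found before Flt1 and in 12.4% of all windows. The core ACGTG of hypoxia response elements was in none of the 3 windows shown and in 16.6% of all windows. Bases outside the windows were not searched, so elements further from the start would be missed. RefSeq windows were at hand for 6 of the 10 genes. Those of Tek, Cldn5 and Emcn held 2, 0 and 4 ETS cores and 0, 1 and 0 GC boxes. A second RefSeq start of Vegfa lies inside the gene, and its window held 2 ETS cores, 1 GC box and 1 ACGTG. A match is a description of the letters and not of a bound site.

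The ligand gene Vegfa (ENSMUSG00000023951, chromosome 17, 46016993 to 46032377, minus strand, build mm10) was at 12.7, 12.0, 14.5, 12.4 and 10.2 FPKM in LPS replicates 1 to 5. In PBS replicates 1 to 5 it was at 17.8, 24.8, 16.0, 21.2 and 19.8 FPKM. Every LPS gland was below every PBS gland, which held for 1.22% of tested genes (4.75% had groups without overlap in either direction, 3.53% with LPS above), with 14.5 FPKM the highest LPS value and 16.0 FPKM the lowest PBS value. These values rest on 599 to 867 reads in LPS and 934 to 1442 reads in PBS libraries. The log2 change, LPS minus PBS on log2(FPKM + 1), was -0.64 with an SE of 0.12, a 95% interval of -0.90 to -0.37 and a limma adjusted p of 0.0158. In the authors' deposited table, Vegfa is listed with a log2 fold change of -0.70 and an adjusted p of 7.18e-08. The call was lost in limma without PBS replicate 4 (log2 change -0.61, adjusted p = 0.0511) and without the 4 libraries with Cd79a of at least 1 FPKM (-0.56, adjusted p = 0.185), where 8 genes of the whole table rose and none fell. The values count all Vegfa transcripts together, so the splice forms that differ in heparin binding were not separated.

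**Figure D1:**
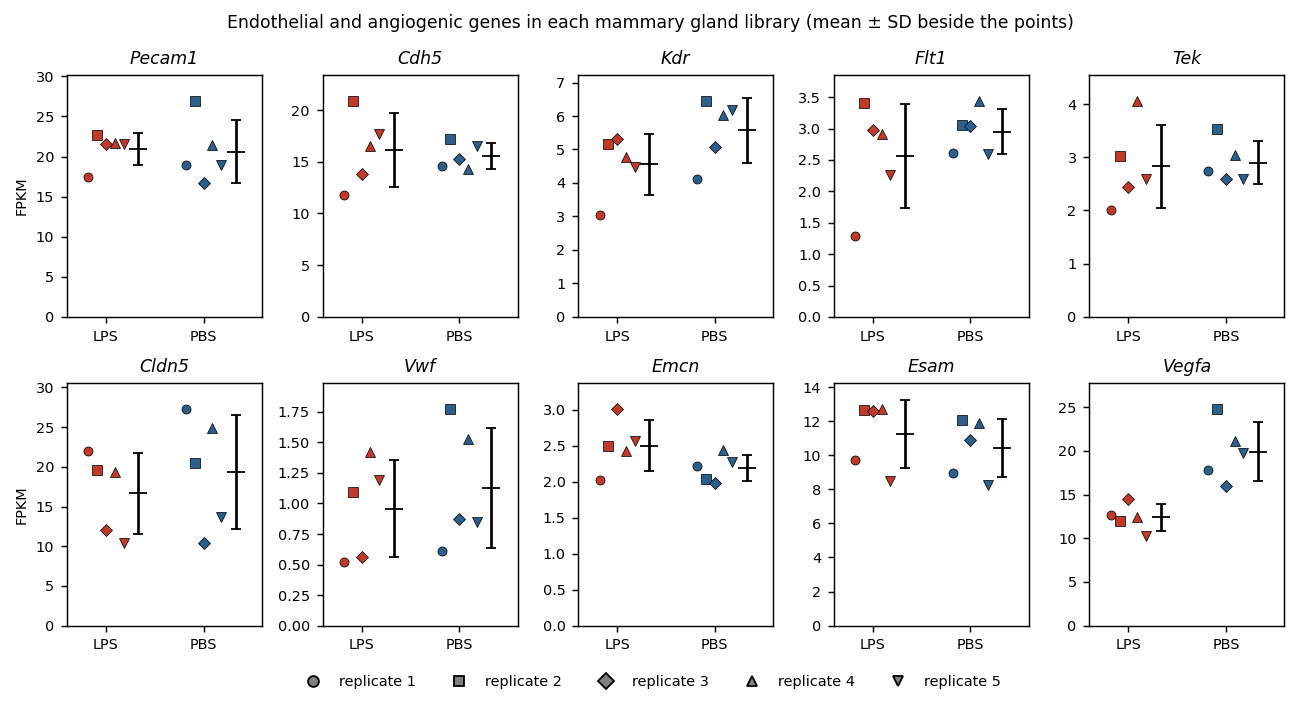
FPKM (vertical axis, from 0) of each of the 10 genes in the 5 LPS and 5 PBS libraries, 1 symbol per replicate number, with the group mean ± SD beside the points. Vegfa is the gene whose groups do not overlap, at 10.2 to 14.5 FPKM in LPS and 16.0 to 24.8 FPKM in PBS glands, while the groups of the other 9 genes overlap.

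The receptor gene Kdr (ENSMUSG00000062960, chromosome 5, 75932827 to 75978458, minus strand) was at 3.03, 5.16, 5.33, 4.77 and 4.48 FPKM in LPS replicates 1 to 5. In PBS replicates 1 to 5 it was at 4.11, 6.46, 5.08, 6.03 and 6.17 FPKM. LPS replicate 1 was below all PBS glands and the other 4 LPS glands lay within the PBS range. The log2 change was -0.25 ± 0.14 (SE), with a 95% interval of -0.56 to 0.07 and a limma adjusted p of 0.438. Kdr was the lowest of the 9 endothelial genes in log2 change. By limma on the values as deposited, a fall of that size could not be told from the spread between glands. The change was below 0 and not called in all 24 alternatives, at -0.42 to -0.14. Before adjustment, limma p was 0.0341 with median-of-ratios scaling, 0.0297 with quantile normalization and 0.0166 rescaled outside milk proteins (adjusted p = 0.239, 0.212 and 0.128). On recovered reads p was 0.0267 with edgeR and 0.0202 with DESeq2 (adjusted p = 0.201 and 0.155). Limma p was 0.0190 with a replicate block and 0.0346 without PBS replicate 1 (adjusted p = 0.109 and 0.319). In all other alternatives the unadjusted limma p was 0.0752 to 0.297.

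Flt1 (ENSMUSG00000029648, chromosome 5, 147561604 to 147726011, minus strand) encodes the decoy-like receptor VEGFR1, also as a soluble form that gene-level values do not separate. It was at 1.28, 3.41, 2.98, 2.91 and 2.27 FPKM in LPS replicates 1 to 5 and at 2.61, 3.06, 3.04, 3.45 and 2.60 FPKM in PBS replicates 1 to 5. LPS replicates 1 and 5 were below all PBS glands and the other 3 were within their range. Its log2 change was -0.18 ± 0.16 (SE; limma adjusted p = 0.664), and without LPS replicate 1 it was -0.03.

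Tek, the angiopoietin receptor (ENSMUSG00000006386, chromosome 4, 94739289 to 94874976, plus strand), was at 2.004, 3.02, 2.45, 4.07 and 2.60 FPKM in LPS replicates 1 to 5. PBS replicates 1 to 5 had 2.74, 3.53, 2.59, 3.05 and 2.59 FPKM. The LPS glands spanned a wider range than the PBS glands and lay on both sides of it. Its log2 change was -0.04 ± 0.14 (SE; limma adjusted p = 0.928) and was 0.04 without LPS replicate 1.

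Among the junction genes, Cdh5, the cadherin that joins endothelial cells and is largely restricted to them (ENSMUSG00000031871, chromosome 8, 104101625 to 104144511, plus strand), was at 11.8, 20.9, 13.8, 16.5 and 17.7 FPKM in LPS replicates 1 to 5. In PBS replicates 1 to 5 it was at 14.6, 17.2, 15.2, 14.4 and 16.5 FPKM. The LPS glands held both the lowest and the highest of the 10 values. The means were 16.1 ± 3.54 FPKM in LPS and 15.6 ± 1.24 FPKM in PBS glands, a log2 change of 0.03 with a 95% interval of -0.26 to 0.31 (limma adjusted p = 0.956). The annotation has an antisense gene, Gm29682, that overlaps Cdh5 and was not in the deposited table, and reads of the 2 cannot be told apart if strand was not used.

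Pecam1 (ENSMUSG00000020717, chromosome 11, 106654217 to 106750628, minus strand) encodes an adhesion molecule of endothelium that platelets and many leukocytes also carry. It was at 17.5, 22.7, 21.6, 21.6 and 21.5 FPKM in LPS replicates 1 to 5 and at 19.0, 27.0, 16.7, 21.4 and 18.9 FPKM in PBS replicates 1 to 5. All LPS glands lay within the PBS range. The log2 change was 0.04 with a 95% interval of -0.23 to 0.30 (limma adjusted p = 0.931). Neutrophil markers rose in the same glands, with 5 of 7 tested genes higher, among them S100a8 and S100a9 (log2 changes 3.11 and 4.63), and summed levels of 7372 to 14192 FPKM in LPS and 709 to 1870.4 FPKM in PBS glands. The count was 2 in place of 5, S100a8 and S100a9, without any one of LPS replicates 2, 3 and 5 or PBS replicates 1, 3, 4 and 5, and without the 4 libraries with Cd79a. Of the 10 neutrophil genes only 3, S100a8, S100a9 and Csf3r, had a mean of at least 5 FPKM, so the sum is mostly theirs. Log2 changes of the called genes Csf3r and Retnlg were smaller, 1.34 and 1.36. Macrophage markers, 8 tested and 0 called by limma, summed to 77.2 to 180.04 FPKM in LPS and 99.9 to 372 FPKM in PBS glands. Their log2 changes were below 0 for 7 genes and above 0 for 1, with a median of -0.43. DESeq2 on recovered reads called 1 of them lower, and the authors' deposited table lists Csf1r at -0.56 (adjusted p = 0.0360). The part of leukocytes in the Pecam1 level was not tested.

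Cldn5, the main claudin of endothelial tight junctions (ENSMUSG00000041378, chromosome 16, 18776847 to 18778262, plus strand), was at 21.96, 19.7, 12.0, 19.4 and 10.4 FPKM in LPS replicates 1 to 5. PBS replicates 1 to 5 had 27.3, 20.5, 10.4, 24.9 and 13.7 FPKM. Replicates 3 and 5 were the lowest of both groups and replicate 1 the highest of both. Its coefficient of variation was 30.7% in LPS and 37.2% in PBS glands, and its log2 change of -0.17 had the widest 95% interval of the 10 genes, -0.75 to 0.40 (limma adjusted p = 0.825). Esam, an immunoglobulin-family junction molecule of endothelium and platelets (ENSMUSG00000001946, chromosome 9, 37528078 to 37538319, plus strand), was at 8.48 to 12.7 FPKM in LPS and 8.27 to 12.04 FPKM in PBS glands. In 3 LPS glands Esam was just above the highest PBS gland, and its log2 change was 0.10 ± 0.14 (SE; limma adjusted p = 0.810).

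Emcn, a sialomucin of capillary and venous endothelium (ENSMUSG00000054690, chromosome 3, 137341067 to 137432185, plus strand), was at 2.02 to 3.004 FPKM in LPS and 1.98 to 2.44 FPKM in PBS glands. Again 3 LPS glands were above the PBS range, and the log2 change of 0.13 ± 0.10 (SE) was not called (limma adjusted p = 0.595). Vwf, the clotting protein that endothelial cells store in Weibel-Palade bodies (ENSMUSG00000001930, chromosome 6, 125546774 to 125686679, plus strand), was at 0.522, 1.09, 0.563, 1.42 and 1.20 FPKM in LPS replicates 1 to 5. It was at 0.613, 1.77, 0.877, 1.53 and 0.849 FPKM in PBS replicates 1 to 5. Both groups spread more than 2-fold for Vwf, with a coefficient of variation of 41.5% in LPS and 43.9% in PBS glands, and the log2 change was -0.11 ± 0.18 (SE; limma adjusted p = 0.837). Vwf was near the filter, above the mean level of 1.09% of tested genes, and rests on 86 to 200 reads in LPS and 98 to 264 reads in PBS libraries.

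**Figure D2:**
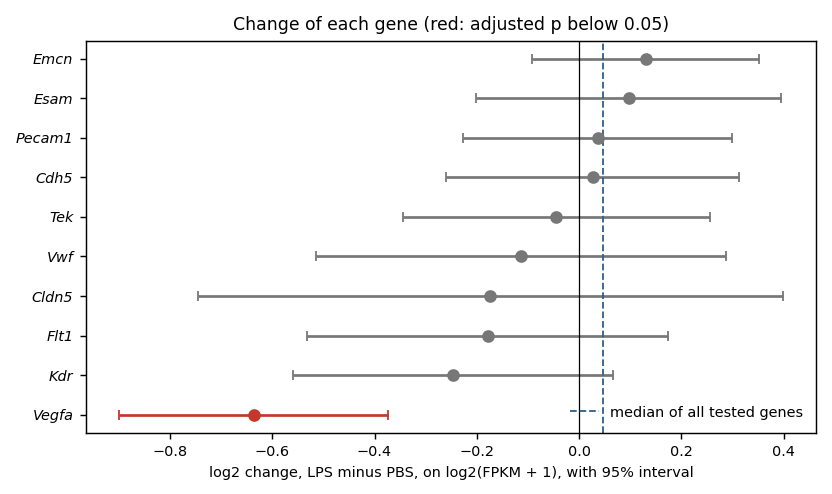
Log2 change of each gene, LPS minus PBS on log2(FPKM + 1) (horizontal axis), with its 95% interval from limma, ordered from highest to lowest; the dashed line is the median of all tested genes at 0.05. The interval of Vegfa, -0.90 to -0.37, lies below 0 and those of the other 9 genes include it.

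The 95% intervals of the 9 endothelial genes all lie between -0.75 and 0.40 on the log2(FPKM + 1) scale, which understates changes of the low genes Vwf, Emcn, Flt1 and Tek. The direction of 4 of them turned with scaling. The changes of Pecam1 and Cdh5 were slightly above 0 as deposited and slightly below 0 with median-of-ratios scaling (-0.02 and -0.03), quantile normalization (-0.08 and -0.06) or rescaling outside milk proteins (-0.17 and -0.18). Those of Emcn and Esam were below 0 only when rescaled outside milk proteins (-0.021 and -0.10). The changes of Kdr, Flt1, Tek, Cldn5 and Vwf were below 0 under each of the 3 scalings, none of them called. Vegfa was lower under each of these scalings, with log2 changes of -0.69, -0.73 and -0.84.

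Per kilobase, Pecam1 was highest over the 10 libraries at a mean of 20.8 FPKM, followed by Cldn5 at 18.0, Vegfa at 16.1, Cdh5 at 15.9, Esam at 10.8, Kdr at 5.06, Tek at 2.86, Flt1 at 2.76, Emcn at 2.34 and Vwf at 1.04 FPKM. The steps from Cdh5 to Esam, Esam to Kdr, Kdr to Tek, and Emcn to Vwf held in 10 of 10 libraries. The first 4 genes were not ordered beyond their spread, since Pecam1 exceeded Cldn5 in 7 and Cldn5 exceeded Vegfa in 6 of 10 libraries. Vegfa was above Cdh5 in 2 of 5 LPS and in 5 of 5 PBS glands. Tek exceeded Flt1 in 5 of 10 libraries, and Flt1 exceeded Emcn in 2 of 5 LPS and 5 of 5 PBS glands.

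Some of the spread was shared within a library. Of the 9 endothelial genes, LPS replicate 1 had the lowest of all 10 values for 5 (Cdh5, Kdr, Flt1, Tek and Vwf) and the lowest of its group for 7, but the highest Cldn5 of its group. The median of its 9 values lay at -0.43 on a log2 scale relative to each gene's mean over the libraries. PBS replicate 2 had the highest value of its group for 6 of the 9 genes and a median of 0.18. Fibroblast markers summed to 124 FPKM in LPS replicate 1 and 159 to 225 FPKM in the other LPS glands, and B and T cell markers summed to 71.2 FPKM in PBS replicate 2 and 0.916 to 33.3 FPKM in the other PBS glands. PBS replicate 2 also had the highest fibroblast and macrophage sums of the 10 libraries, 234 and 372 FPKM. The macrophage sum of LPS replicate 1, 180.04 FPKM, was the highest of the LPS glands. The part of tissue composition in these 2 libraries was not tested. Without LPS replicate 1 or without PBS replicate 2 none of the 9 endothelial genes was called, and Vegfa was still called (adjusted p = 0.0219 and 0.0255).

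**Figure D3:**
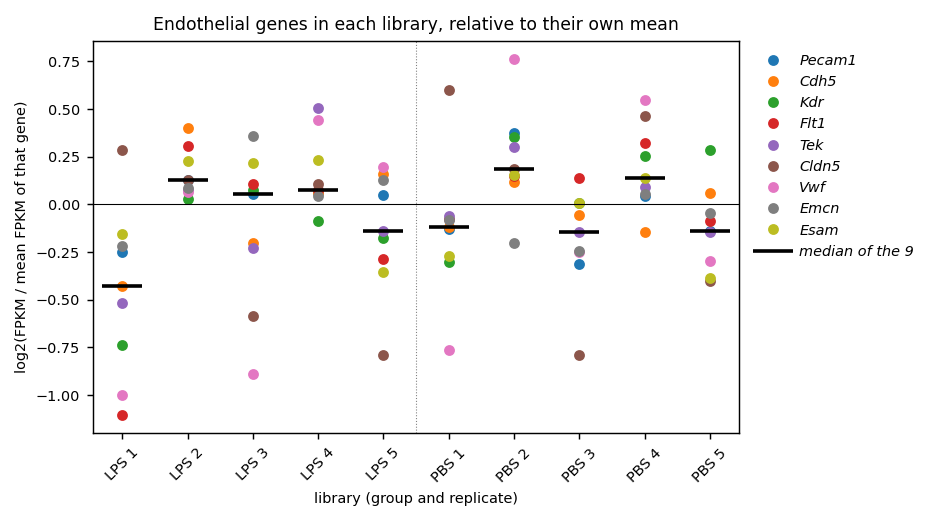
Each endothelial gene in each library as log2 of its FPKM over its mean FPKM in the 10 libraries (vertical axis), with LPS libraries on the left and PBS libraries on the right; black bars are the median of the 9 genes. LPS replicate 1 has the lowest median, -0.43, and PBS replicate 2 the highest, 0.18.

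Ratios within a library do not move with its scaling. The Vegfa to Kdr ratio of FPKM was 4.19, 2.33, 2.73, 2.60 and 2.28 in LPS replicates 1 to 5 and 4.33, 3.83, 3.15, 3.51 and 3.20 in PBS replicates 1 to 5. In 4 of 5 LPS glands the ligand was lower relative to its receptor than in any PBS gland, and in LPS replicate 1, where Kdr itself was lowest, the ratio was near the top of the PBS range. The mean log2 ratio differed by -0.38 (two-sided exact permutation test, p = 0.0714; adjusted p = 0.214 over 3 ratios), so this difference did not pass. Without LPS replicate 1 it was -0.53 with an exact permutation adjusted p of 0.0238. The Flt1 to Kdr ratio was 0.423 to 0.661 in LPS and 0.422 to 0.637 in PBS glands (log2 difference 0.03, exact permutation adjusted p = 0.849). Emcn over Pecam1 was 0.110 to 0.139 in LPS and 0.0755 to 0.120 in PBS glands (log2 difference 0.15, exact permutation adjusted p = 0.738).

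**Figure D4:**
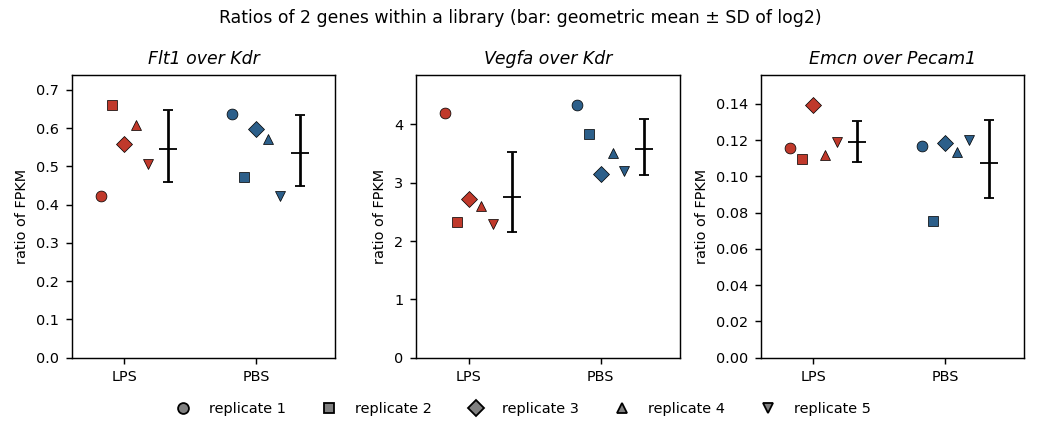
Ratio of FPKM of 2 genes in the same library (vertical axes, from 0), 1 symbol per replicate number, with the geometric mean ± SD of log2 beside the points. For Vegfa over Kdr, 4 LPS glands lie at 2.28 to 2.73 and LPS replicate 1 at 4.19, against 3.15 to 4.33 in PBS glands.

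Other genes of the pathway were read from lists set down with the design. Of 17 VEGF and angiopoietin genes 12 were tested and 0 were called by limma, with 0 higher and 1 lower at p below 0.05 before adjustment, and a median log2 change of -0.00 beside 0.05 for all tested genes. That 1 gene was Nrp1, a co-receptor of VEGF, at 2.93 ± 0.555 FPKM in LPS and 3.83 ± 0.666 FPKM in PBS glands (SD, n = 5 each; limma adjusted p = 0.276). On recovered reads its adjusted p was 0.0253 with DESeq2 and 0.0760 with edgeR, and the authors' deposited table lists it with a log2 fold change of -0.41 (adjusted p = 0.0309). Vegfb, another VEGF, was at 11.8 ± 1.32 FPKM in LPS and 13.03 ± 1.46 FPKM in PBS glands (limma adjusted p = 0.598). Angptl4, a secreted lipase inhibitor that also acts on vessels, was at 163 ± 76.8 FPKM in LPS and 134 ± 68.98 FPKM in PBS glands (limma adjusted p = 0.808).

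The placental growth factor gene Pgf, a ligand of Flt1, was at 0.636 to 1.97 FPKM in LPS and 0.315 to 1.39 FPKM in PBS glands (log2 change 0.33, limma adjusted p = 0.449). Angpt1, the ligand that activates TIE2, was at 2.59 to 4.76 FPKM in LPS and 2.73 to 5.15 FPKM in PBS glands (log2 change -0.22, limma adjusted p = 0.574). Angpt2, the angiopoietin released by activated endothelium, was below the filter, at 0.476 to 1.04 FPKM in LPS and 0.332 to 0.949 FPKM in PBS glands. The lymphatic VEGF receptor gene Flt4 was also below it, at 0.280 to 0.864 FPKM in LPS and 0.420 to 1.16 FPKM in PBS glands.

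Of 27 further genes of endothelial identity 25 were tested, with 0 higher and 1 lower (1 higher and 2 lower before adjustment), and their median log2 change was -0.06. The gene that fell was Cd36, a fatty acid carrier of capillary endothelium that adipocytes and milk-secreting epithelium also express, at 116 ± 22.7 FPKM in LPS and 188 ± 26.3 FPKM in PBS glands (SD, n = 5 each; log2 change -0.70, limma adjusted p = 0.0193). Its call was lost without LPS replicate 2, PBS replicate 1 or PBS replicate 4 (limma adjusted p up to 0.0584). It was also lost without a filter (0.0599) and without the 4 libraries with Cd79a (0.416). Plvap, the diaphragm protein of fenestrated capillaries, was at 8.14 to 14.7 FPKM in LPS and 6.48 to 17.3 FPKM in PBS glands (limma adjusted p = 0.881). Cd34, a sialomucin of endothelium and progenitor cells, was not called by limma (log2 change -0.40, adjusted p = 0.184), and the authors' deposited table lists it with a log2 fold change of -0.45 and an adjusted p of 0.0400.

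None of 11 tested endothelial transcription factor genes was called (0 higher and 0 lower before adjustment), and 9 of the 11 log2 changes were below 0, with a median of -0.14. Erg, an ETS factor that maintains endothelial identity, was at 2.63 to 3.43 FPKM in LPS and 2.79 to 3.96 FPKM in PBS glands (log2 change -0.12, limma adjusted p = 0.671). Sox17, an arterial factor, had a log2 change of -0.32 (limma adjusted p = 0.384), and Klf2, a gene induced by flow, one of -0.20 (limma adjusted p = 0.735). Ets2 had the highest level, 24.3 ± 5.23 FPKM in LPS and 23.6 ± 2.46 FPKM in PBS glands (limma adjusted p = 0.969).

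Notch signalling between endothelial cells restrains sprouting downstream of VEGF. Of its 8 tested genes 0 were called by limma, with 0 higher and 1 lower before adjustment and a median log2 change of 0.04. The 1 gene was Dll4, the Notch ligand of endothelial tip cells, at 0.693, 0.942, 1.57, 1.24 and 1.32 FPKM in LPS replicates 1 to 5 and 1.40, 2.17, 1.70, 1.81 and 1.80 FPKM in PBS replicates 1 to 5. All but LPS replicate 3 were below the PBS range. Its log2 change was -0.38 (limma adjusted p = 0.163; 0.0819 with edgeR and 0.0247 with DESeq2 on recovered reads), and the authors' deposited table lists it at -0.57 with an adjusted p of 0.0265. Hes1 and Jag1, the most abundant genes of this list, had log2 changes of -0.07 and 0.07 (limma adjusted p = 0.939 and 0.830).

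Vegfa is a target of the hypoxia-inducible factors. Of 16 genes listed for hypoxia 13 were tested and 0 were called by limma (2 higher and 1 lower before adjustment), with a median log2 change of 0.07, which was -0.12 when rescaled outside milk proteins. DESeq2 on recovered reads called 1 of the 13 higher and 0 lower. From this list the authors' deposited table has Adm, with a log2 fold change of 0.73 (adjusted p = 0.0240). The glycolytic targets Ldha and Pgk1 were at 223 ± 20.7 and 146 ± 15.4 FPKM in LPS and at 189 ± 34.5 and 117 ± 23.3 FPKM in PBS glands (log2 changes 0.25 and 0.33, limma adjusted p = 0.339 and 0.199). Of 13 tested milk genes limma called 0 higher and 1 lower (1 higher and 5 lower before adjustment). This was Btn1a1, a protein of the milk fat globule membrane, at 131 ± 22.9 FPKM in LPS and 215 ± 19.3 FPKM in PBS glands (log2 change -0.73, limma adjusted p = 0.00864). DESeq2 on recovered reads called 3 of the 13 lower and 1 higher. The authors' deposited table lists Btn1a1 and the casein genes Csn2 and Csn3 at -0.74, -0.59 and -0.46 (adjusted p = 8.11e-08, 0.00611 and 0.0274). Luminal epithelial markers had 1 of 7 genes higher, Krt8 (log2 change 0.53, limma adjusted p = 0.0445), and 0 lower. The Krt8 call held without LPS replicate 1 or PBS replicate 2 and was lost without any other single library (limma adjusted p up to 0.121), under each of the 3 other scalings and with edgeR. These markers had summed levels of 1039 to 1250.02 FPKM in LPS and 969 to 1089 FPKM in PBS glands, and adipocyte markers, with 0 of 7 called, were at 93.7 to 181 FPKM in LPS and 94.9 to 165 FPKM in PBS glands. The part of each cell type in the Vegfa level was not tested.

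Of 14 tested genes of endothelial junctions, many of them shared with epithelium, 0 were called (2 higher and 0 lower before adjustment; median log2 change 0.03). The catenin genes Ctnnb1 and Jup, whose proteins tie cadherins to the cell interior, had log2 changes of 0.21 and 0.18 (limma adjusted p = 0.265 and 0.432). Of 8 tested genes of Weibel-Palade bodies and haemostasis 0 were called (3 higher and 0 lower before adjustment; median log2 change 0.22). Their most abundant genes were Cd63, a membrane protein of storage granules and lysosomes, with a log2 change of 0.50 (limma adjusted p = 0.0875; 0.0209 with DESeq2 on recovered reads), and the tissue factor gene F3, with 0.40 (limma adjusted p = 0.258). The authors' deposited table lists Cd63 at 0.43 (adjusted p = 0.0222) and Selp, the P-selectin gene, which was below the filter here, at 0.98 (adjusted p = 0.000651). Without LPS replicate 4 limma called 2 genes of the list higher. In the endothelial activation list, chosen for genes that inflamed endothelium makes together with other cells, 2 of 7 tested genes were higher and 0 lower (4 higher and 0 lower before adjustment), with a median log2 change of 0.64. The count was 4 without LPS replicate 1, 3 with DESeq2, and 0 without a filter or without the 4 libraries with Cd79a. The 2 called genes were Csf3, the granulocyte growth factor gene, and Ccl2, a monocyte attractant gene, with log2 changes of 1.68 and 1.67 (both with a limma adjusted p of 0.0157; 0.312 and 0.248 without the 4 libraries with Cd79a). The authors' deposited table also lists Icam1 and Il6 of this list as higher, at 0.65 and 1.42 (adjusted p = 0.0217 and 2.83e-07).

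An endothelial gene without overlap lay below the filter. It was picked after its values were seen. The 4.75% of genes without overlap in either direction covers tested genes only, so no share of low genes stands beside it. Sele, the E-selectin gene made almost solely by activated endothelium, was at 0.309 to 1.38 FPKM in LPS and 0.0609 to 0.236 FPKM in PBS glands, from 230 reads over the 5 LPS and 38 over the 5 PBS libraries. The authors' deposited table lists it with a log2 fold change of 1.22 (adjusted p = 2.91e-05), while the limma adjusted p without a filter was 0.0927.

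**Figure D5:**
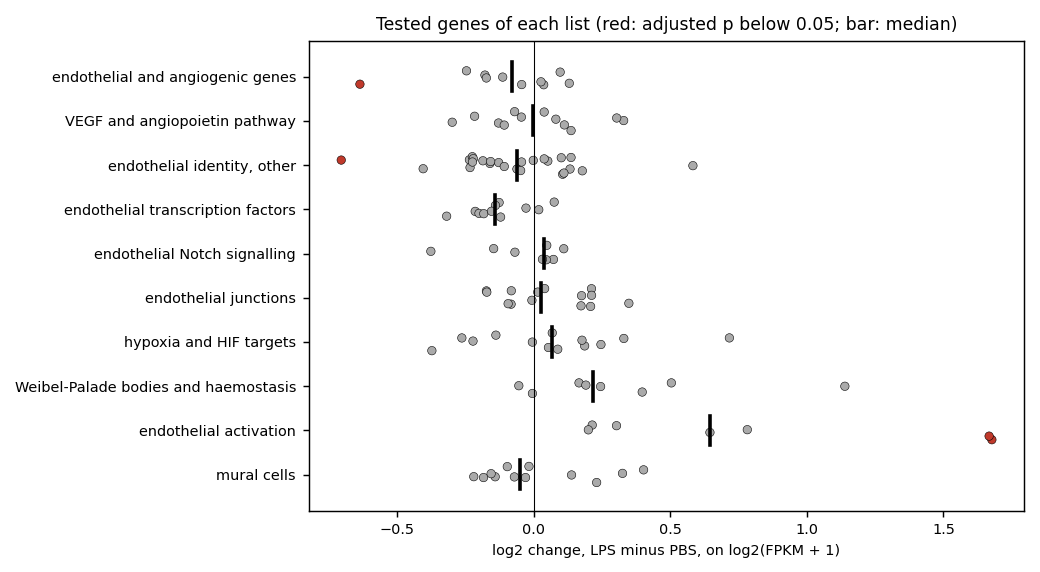
Log2 change, LPS minus PBS on log2(FPKM + 1) (horizontal axis), of every tested gene of 10 lists, 1 point per gene, red where the limma adjusted p was below 0.05, with the list median as a bar. Red points are Vegfa at -0.64, Cd36 at -0.70, and Csf3 and Ccl2 at 1.68 and 1.67; the medians of the lists other than endothelial activation lie between -0.14 and 0.22.

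Likeness in level across glands was measured against Cdh5. Among 7135 genes of mean FPKM of at least 5, the highest Pearson r of log2(FPKM + 1) over the 10 libraries was 0.93 for Flii, an actin regulator, 0.92 for Capn2, a calpain protease, 0.91 for Tars, a threonyl-tRNA synthetase, 0.90 for Pak4, a kinase, and 0.90 for Epop, a chromatin protein. None of these 5 is in the endothelial lists. Among the other 9 genes of the set r with Cdh5 ran from -0.17 (Cldn5) to 0.57 (Flt1). The points share the scaling of their library, and these values are a description of 10 glands with no test.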

How the data were processed

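RNA of 10 mammary glands, 5 LPS and 5 PBS, was sequenced. Build mm10 and the tools STAR 2.5, HTSeq 0.6.1 and DESeq2, listed as version 2, are named per the submitters' processing notes, without settings or annotation release. Strand use in library making and counting is not given in the sources used here. The authors deposited FPKM for all genes. For 908 genes, each of adjusted p-value under 0.05 in their own test, the authors also deposited raw read counts, a normalized signal (the count divided by 1 size factor per library) and log2 fold changes, LPS over PBS. Their fold changes can differ in size from those computed here. For Csf3 they list 0.92, against 1.74 with DESeq2 on recovered reads, so the 2 kinds of value are comparable in direction and not in size.

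FPKM equalled the count per gene length and per whole number of reads of the library (15734303 to 18869545). Whole reads were recovered in this way for 23053 of 23059 genes above 0, within 0.002 reads, and found lengths equalled the deposited ones for 907 of 908 genes. Depth limits counting error only, since PCR copies cannot be told apart. Symbols were matched by Ensembl ID for 34490 genes from a reference table and for 3 from the authors' table. Coordinates are GENCODE M21 on GRCm38, the assembly of mm10, and those of Vegfa the authors'.

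Genes reaching 1 FPKM in 5 or more libraries were tested with limma 3.58.1 (R 4.3.3; intensity trend, two-sided) on log2(FPKM + 1), which understates changes of low genes, with Benjamini-Hochberg adjustment over all 11414. Group was the only term. Within-library ratios of 2 genes had an exact permutation test (two-sided), whose smallest p is 0.00794. Alternatives were other pseudocounts (0.1, 5), filters and scalings, left-out libraries, library weights, no trend, robust moderation, a replicate block, and edgeR 4.0.16 and DESeq2 1.42.0 on recovered reads. The procedures were checked on simulated data. The genes, lists and tests were chosen with earlier results of these data known. Named genes were all 10 of the set, up to 4 called genes of each list (or the 2 of highest mean), 10 fixed pathway genes and the 5 most like Cdh5. Cd34, Sele, Selp, Ccl21a, Adm, Icam1, Il6, Csf1r, Csn2 and Csn3 were added after their values were seen.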

Additional observations from a re-analysis of the deposited data

Results flagged for a closer look

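In groups of 5, a value was set aside for a closer look when its gap to the nearest other value exceeded 0.71 of the group's range; this was applied to 46 groups of values, 3 were marked, and chance marks about 1 in 20. Pecam1 was at 17.5 FPKM in LPS replicate 1, below the 21.5 to 22.7 FPKM of the other LPS glands. The ratio of Vegfa to Kdr was 4.19 in the same gland, above the 2.28 to 2.73 of the other LPS glands. The ratio of Emcn to Pecam1 was 0.0755 in PBS replicate 2, below the 0.114 to 0.120 of the other PBS glands; this is the gland with the highest Cd79a level, 12.7 FPKM. The part of B and T cells in that ratio was not tested.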

How the results depend on the processing

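Of the 10 genes, 0 were called higher under any of 24 alternatives, and 1 was called lower under 21 of them. The count lower was 0 without a filter, without the 4 libraries with Cd79a and without PBS replicate 4, so 0 to 1 over left-out libraries. Vegfa was at -0.64 without a filter (limma adjusted p = 0.0511; unadjusted p = 0.000287, against 0.000175 with it), at -0.56 without the 4 libraries (0.185, fewer samples), and at -0.71 to -0.56 over left-out libraries. Over the whole table, genes higher and lower numbered 300 and 69. They numbered 101 and 25 without a filter, 128 and 341 rescaled outside milk proteins, 534 and 122 with library weights, 546 and 299 with DESeq2, and 8 and 0 without the 4 libraries. Genes lower numbered 145 with quantile normalization and 132 with edgeR. Left-out libraries gave 121 to 429 higher and 27 to 88 lower. The labels do not say whether a replicate number marks an animal. Correlations of same-numbered deviations were 0.099 to 0.49, and 3 of 5 LPS libraries matched their own number best, a hint of pairing from the data and not the design. A replicate block gave 962 higher and 267 lower and changed no call among the 10 genes. In lists with 0 called it gave 4 macrophage genes lower, 3 Weibel-Palade, 2 hypoxia, 1 junction and 1 mural cell gene higher, and 1 VEGF and angiopoietin gene lower.

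Directions near 0 turned. Pecam1 and Cdh5 were at -0.018 and -0.028 with median-of-ratios scaling, -0.077 and -0.062 with quantile normalization, -0.17 and -0.18 rescaled outside milk proteins, -0.034 and -0.017 with edgeR, and -0.036 and -0.019 with DESeq2. Left-out libraries gave -0.031 to 0.13 for Pecam1, -0.069 to 0.13 for Cdh5 and -0.15 to 0.037 for Tek. Without the 4 libraries Cdh5 was at -0.027, Tek at 0.060, Cldn5 at 0.059 and Vwf at 0.18. Tek was at 0.032 with library weights. Emcn and Esam were at -0.021 and -0.10 rescaled outside milk proteins. The log2 ratio difference of Flt1 to Kdr was -0.10 without the 4 libraries and -0.056 to 0.12 over left-out libraries, and that of Emcn to Pecam1 was -0.036 without the 4. That of Vegfa to Kdr was -0.37 with a pseudocount of 5 (exact permutation adjusted p = 0.0476) and -0.53 to -0.31 over left-out libraries, passing without LPS replicate 1. The cause of these shifts was not tested. Reads were fewest for Emcn and Vwf, which limits counting precision only. On the log2(FPKM + 1) scale, which understates changes of low genes, Emcn had the smallest SE of the 10 genes, 0.10. Cldn5 had the largest, 0.26.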

Other observations

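Calls among vessel-associated and lymphatic genes stand beside 3.23% of all tested genes called by limma in either direction. Of 12 tested mural cell genes 0 were called by limma (2 higher and 0 lower before adjustment). The most abundant, Acta2 and Tagln, which myoepithelial cells also express, were at 330 ± 37.2 and 133 ± 11.2 FPKM in LPS and 264 ± 38.7 and 101 ± 15.2 FPKM in PBS glands (limma adjusted p = 0.172 and 0.0649). The authors' deposited table lists Tagln at 0.32 (adjusted p = 0.0415). The count of mural cell genes higher was 1 with DESeq2 on recovered reads, with library weights and without PBS replicate 2. Of 9 lymphatic genes 3 were tested and Pdpn, podoplanin of lymphatic endothelium, myoepithelium and fibroblasts, rose to 5.43 ± 0.933 FPKM in LPS glands, against 3.38 ± 0.678 FPKM in PBS glands (log2 change 0.56, limma adjusted p = 0.0445). The Pdpn call held without LPS replicate 1 or PBS replicate 2 and was lost without any other single library (limma adjusted p up to 0.126).

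The lymph node stroma chemokine gene Ccl21a was at 4.85 FPKM at most in LPS glands and at 66.9 and 27.2 FPKM in PBS replicates 2 and 4, the PBS glands with the most Cd79a. Madcam1, an adhesion molecule of venules, was at 4.28 to 12.5 FPKM in LPS and 2.77 to 10.8 FPKM in PBS glands (limma adjusted p = 0.893). Of 7 platelet genes 2 were tested and 0 called, with Pf4 at 3.77 ± 1.57 FPKM in LPS and 2.04 ± 1.21 FPKM in PBS glands (limma adjusted p = 0.268). Of 7 fibroblast genes 0 were called, with Col3a1 at 64.6 ± 21.9 FPKM in LPS and 63.04 ± 13.9 FPKM in PBS glands (limma adjusted p = 0.993).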
